A study of Mus musculus with 12 samples.

Results

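The cholesterol and fatty acid synthesis genes are 32 genes listed by function, in 3 groups. The sterol arm holds enzymes that build cholesterol from acetyl-CoA, and Ggps1 of a side branch of that route. The fatty acid arm holds enzymes that build and desaturate fatty acids, and Me1, which supplies NADPH for this. The last group holds the regulators of both arms together with a sterol carrier. Their values came from kidneys of mice profiled on Affymetrix Mouse Genome 430 2.0 arrays, in a study of the genes that angiotensin receptors control in the kidney. Of the 32, 31 had at least 1 probe set annotated to them alone, out of 18193 genes measured. These were 18 sterol enzymes, 7 fatty acid enzymes and 6 regulators and carriers, with 73 of the 45037 probe sets. Acat2, the remaining member, has no expression value here and enters only the promoter windows.

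Angiotensin II (ANG II), a peptide hormone that raises blood pressure, acts in the mouse kidney mostly through the AT1A receptor, the product of Agtr1a. The animals were male mice of 2.5 months, from an F1 cross of C57BL6 and 129/SvEv. Wild-type (WT) and AGTR1A-KO mice, which lack the receptor, were studied without infusion (baseline) or after 2 days of ANG II at 1 ug/kg/min. All 4 groups carry the diet label NS, which the labels do not spell out. Each group held 3 mice and 3 arrays, so 12 arrays of total RNA from snap-frozen kidneys were compared. The labels limit the loss of the receptor to no tissue or cell type. Whole kidney RNA mixes tubule, vessel, glomerular and blood-derived cells, and fewer cells of a type and less RNA per cell cannot be told apart in it.

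Cholesterol is made from acetyl-CoA through mevalonate, isoprenoid diphosphates, squalene and lanosterol, followed by a series of trimming steps on the sterol rings. Most of these enzymes are switched on by SREBP2, the product of Srebf2, while SREBP1, the product of Srebf1, acts more on fatty acid enzymes. Both factors are held in the endoplasmic reticulum with the escort protein SCAP. When membrane sterols are plentiful, INSIG proteins keep SCAP there, and when sterols run low the complex moves to the Golgi, where proteases free the active factor. Insig1 is itself an SREBP target, so its messenger RNA normally follows that of the enzymes. Kidney tubule cells make cholesterol for their large membrane area.

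SREBP factors act on promoters together with the general factors NF-Y and Sp1, so the promoter windows of the members are shown first. RefSeq windows of assembly GRCm38.p6, running from 250 bases before to 50 bases after an annotated start, were matched by symbol for 26 of the 32 members and gave 35 windows. The windows were searched on both strands for a sterol regulatory element of the letters TCACNCCAC, the E-box CACGTG, the NF-Y box CCAAT and the Sp1 box GGGCGG. Among 109 matches in the members, 0 overlapped a match of another motif. The sterol regulatory element was in 1 of 35 member windows, that of Hmgcs1, and in 1.24% of all 32851 windows. The E-box was in 6 of 35 (17.1%) against 7.15% of all windows. The NF-Y box was in 23 of 35 (65.7%) against 37.41%, and in 15 of the 19 windows of sterol enzymes. The Sp1 box was in 25 of 35 (71.4%) against 35.66%, and in 15 of the 19 windows of sterol enzymes. Of the 6 windows of fatty acid enzymes, 3 held the NF-Y box, 2 (33.3%) the Sp1 box and 0 the E-box. These are matches of letters in a window of 300 bases and not measured binding. The 4 windows below are printed from 5′ to 3′ on the strand of the gene, with every match in capitals. Hmgcs1 held the sterol regulatory element (TCACCCCAC, its first base 137 bases before the start). Idi1 had the largest fall of all members in WT kidneys. Nsdhl was called in all 5 comparisons. Fasn is shown from the fatty acid arm, with 3 NF-Y matches and no match of the other motifs. Of these 3, 2 overlap each other on opposite strands, at 62 and 59 bases before the start. Windows of this arm differed, and those of Acaca and Elovl6 held no match of any motif. The windows lie at chr13:119690101-119690400 (plus strand), chr13:8885356-8885655 (plus strand), chrX:72918271-72918570 (plus strand) and chr11:120824498-120824797 (minus strand).
Hmgcs1: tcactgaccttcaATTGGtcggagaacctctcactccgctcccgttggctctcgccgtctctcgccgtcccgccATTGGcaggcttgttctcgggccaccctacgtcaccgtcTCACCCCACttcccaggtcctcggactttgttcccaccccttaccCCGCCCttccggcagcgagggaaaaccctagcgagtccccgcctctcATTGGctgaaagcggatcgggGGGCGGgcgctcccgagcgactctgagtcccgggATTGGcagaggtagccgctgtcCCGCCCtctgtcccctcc
Idi1: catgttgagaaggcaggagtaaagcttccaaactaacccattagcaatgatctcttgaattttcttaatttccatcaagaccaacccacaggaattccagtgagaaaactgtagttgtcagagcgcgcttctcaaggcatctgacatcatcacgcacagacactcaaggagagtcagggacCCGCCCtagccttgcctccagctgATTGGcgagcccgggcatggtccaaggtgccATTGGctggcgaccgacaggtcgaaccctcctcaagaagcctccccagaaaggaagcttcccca
Nsdhl: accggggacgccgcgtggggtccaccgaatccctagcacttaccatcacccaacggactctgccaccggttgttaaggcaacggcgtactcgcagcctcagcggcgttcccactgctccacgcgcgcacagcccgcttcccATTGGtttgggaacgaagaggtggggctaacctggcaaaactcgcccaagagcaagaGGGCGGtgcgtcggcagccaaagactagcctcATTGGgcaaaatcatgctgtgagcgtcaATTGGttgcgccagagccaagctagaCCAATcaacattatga
Fasn: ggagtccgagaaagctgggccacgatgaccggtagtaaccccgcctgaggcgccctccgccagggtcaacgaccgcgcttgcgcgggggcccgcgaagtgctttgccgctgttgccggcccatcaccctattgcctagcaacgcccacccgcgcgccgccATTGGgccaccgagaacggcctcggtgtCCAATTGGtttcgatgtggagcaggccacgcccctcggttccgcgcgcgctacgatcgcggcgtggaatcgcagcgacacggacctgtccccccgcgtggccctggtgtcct

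Each deposited value divides the signal on an array by the median of that probe set over all 12, so a value of 1 is that median and levels of different genes cannot be compared. A gene's value is the mean log2 ratio of its probe sets, given below as a plain ratio for single arrays and as a log2 change between groups. The error given with a log2 change is the moderated standard error of 1 limma fit to all 12 arrays, with 3 mice per group in every comparison. Calls rest on p-values adjusted over all 18193 genes by the Benjamini-Hochberg method, with a threshold of 0.05, and "rose", "fell" and "called" are used of such genes only.

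Agtr1a, with 1 probe set, read 1.37, 1.40 and 1.36 in the WT baseline kidneys and 1.04, 0.923 and 0.965 in the KO baseline kidneys, a log2 change of -0.49 ± 0.07 (adjusted p = 0.00148, limma). The WT ANG II kidneys gave 0.957, 1.00 and 0.997, a fall from WT baseline (-0.48 ± 0.07, adjusted p = 0.000542), and the KO ANG II kidneys 0.983, 0.917 and 1.05, so Agtr1a separates the genotypes at baseline but not under ANG II. The sources used here do not say where its probes lie against the deleted part. Some features of the arrays moved with the groups below. The log2 difference between 3′ and 5′ probe sets of the beta-actin control is a measure of RNA quality. Here it was taken from ratios, so it shows shifts between arrays and not how intact the RNA was. It was 0.0747 to 0.150 on the WT ANG II arrays and -0.0253 to 0.0069 on the WT baseline arrays. It was -0.0517 to -0.0274 on the KO baseline arrays and 0.0016 to 0.0345 on the KO ANG II arrays. The same difference for the Gapdh control ran from -0.0601 to 0.0584 and overlapped in all groups. The standard deviation of log2 ratios over all genes was 0.252 to 0.314 on the WT ANG II arrays, 0.194 to 0.241 on the KO baseline arrays and 0.134 to 0.175 on the other arrays. The geometric mean ratio of 11 macrophage markers ran from 1.73 to 2.59 for KO baseline, from 0.913 to 1.25 for KO ANG II, from 0.777 to 1.01 for WT baseline and from 0.613 to 0.771 for WT ANG II. The same mean of 12 proximal tubule markers ran from 0.717 to 0.762 for WT ANG II and from 0.927 to 1.12 over the other groups. Ratios keep no level, so whether a kidney or macrophage marker was present at all cannot be read. The part of these differences in the results below was not tested.

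The sterol arm was broadly lower in WT kidneys after ANG II. Of 18 sterol enzymes, 13 fell and 0 rose, where 15.6% of all genes fell and 10.9% rose in limma. At an unadjusted p under 0.05, 14 were lower and 0 higher. Idi1 and Dhcr7 fell most, by 3.82-fold and 2.15-fold, and the median log2 change of the 18 was -0.44, against 0.03 over all genes. In the fatty acid arm 2 of 7 enzymes fell, Fasn and Me1, and the median was -0.25. Among the 6 regulators and carriers Insig1, Insig2 and Srebf2 fell, with a median of -0.23. With the deposited values quantile normalized once more, 25.8% of all called genes were higher in place of 41.1%, and 13 sterol enzymes, 2 fatty acid enzymes and 2 regulators fell. Among these Ggps1 stood in place of Msmo1. With 1 probe set per gene 10 sterol enzymes fell and 2 rose, Fdft1 and Lss (adjusted p of 0.0385 and 0.0224, in ranges of 0.0385 to 0.950 and 0.0224 to 0.976 over all alternatives). The arrays of both groups did not overlap for 14 of the 18 sterol enzymes, all lower under ANG II, where that held for 21.3% of all genes. The plot of both responses shows each member with its error.

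**Figure D1:**
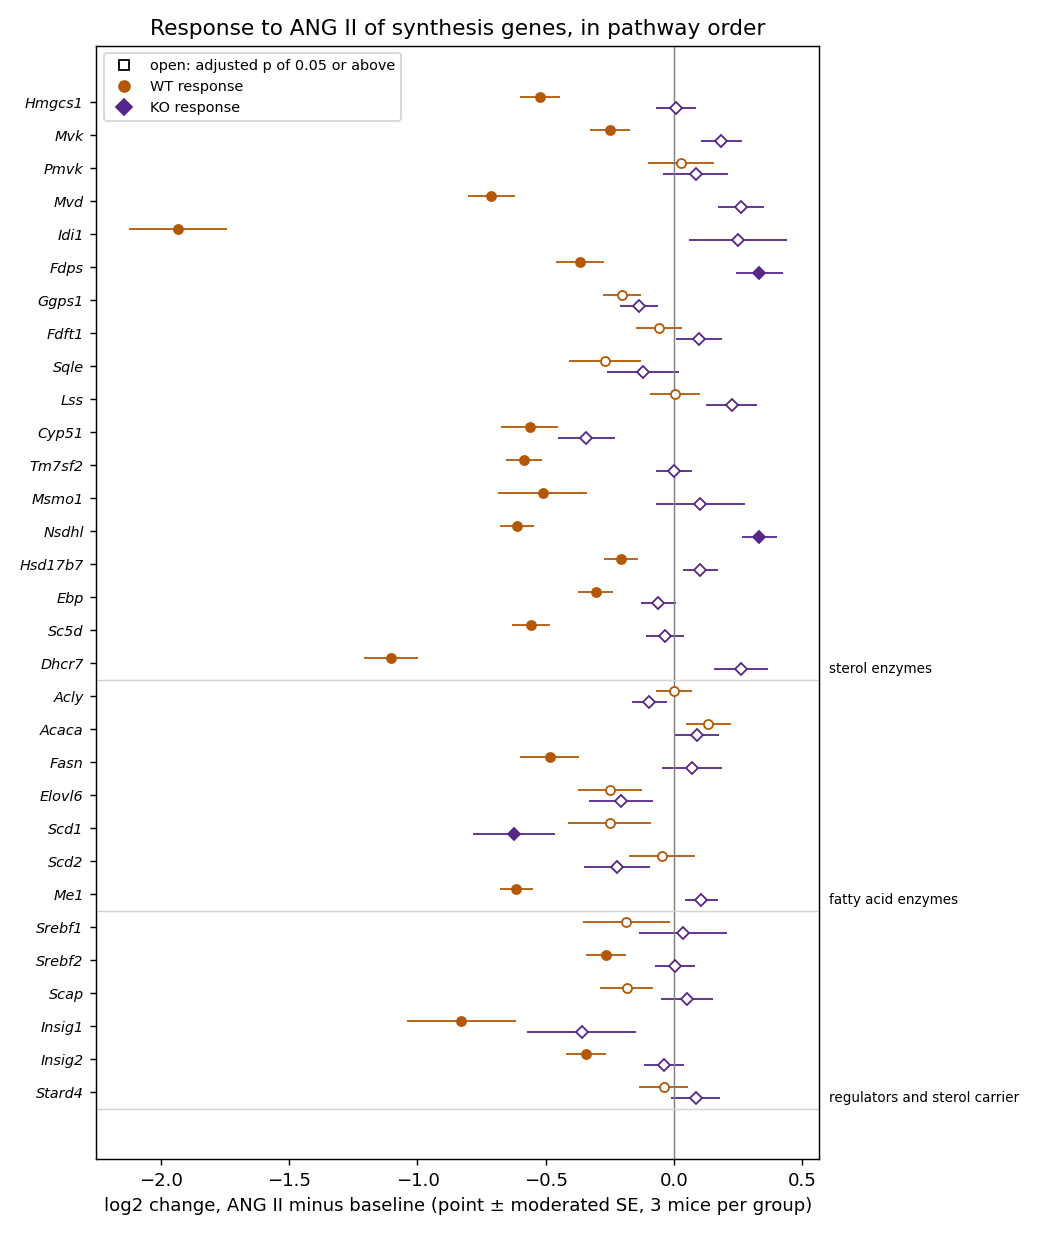
Log2 change from baseline to ANG II (x axis) of each measured synthesis gene (y axis, in pathway order) in WT kidneys (circles) and KO kidneys (diamonds), as point ± moderated standard error with 3 mice per group; filled symbols have an adjusted p under 0.05. Filled circles lie to the left of 0 for 13 sterol enzymes, Fasn, Me1, Srebf2, Insig1 and Insig2, and the filled KO symbols are those of Fdps and Nsdhl, both at 0.33, and Scd1, at -0.62.

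The first steps lead from acetyl-CoA to isopentenyl diphosphate. Hmgcs1, which makes HMG-CoA, read 1.01, 1.11 and 1.01 in the WT baseline kidneys and 0.713, 0.802 and 0.671 in the WT ANG II kidneys, a log2 change of -0.52 ± 0.08 (adjusted p = 0.000677, limma). Mvk, which phosphorylates mevalonate, read 1.16, 1.17 and 1.08 at baseline and 0.893, 0.979 and 1.00 under ANG II. Its change of -0.25 ± 0.08 was small (adjusted p = 0.0361). Pmvk, the kinase that follows, read 1.08, 0.883 and 0.974 at baseline and 1.09, 1.10 and 0.818 under ANG II, so its groups overlapped (0.03 ± 0.13, adjusted p = 0.882). Mvd, which decarboxylates mevalonate diphosphate, read 1.12, 1.06 and 1.12 at baseline and 0.698, 0.689 and 0.631 under ANG II, a gap wider than the spread in either group (-0.71 ± 0.09, adjusted p = 0.000244). Idi1, which isomerizes isopentenyl diphosphate, showed the widest gap of the pathway. Its ratio was 1.30, 1.63 and 1.13 in the WT baseline kidneys and 0.355, 0.461 and 0.264 in the WT ANG II kidneys (-1.93 ± 0.19, adjusted p = 4.43e-05). The highest ANG II kidney, at 0.461, lay far below the lowest baseline kidney, at 1.13, though the mice of a group also differed from each other. Thus 4 of the 5 early enzymes fell.

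The middle steps join isoprenoid units into farnesyl diphosphate, squalene and lanosterol, and most of these enzymes were not called. Fdps, the farnesyl diphosphate synthase, read 1.13, 1.27 and 1.16 at baseline and 0.987, 0.988 and 0.796 under ANG II (-0.37 ± 0.09, adjusted p = 0.013). The single low value is that of replicate 3. Ggps1, which diverts farnesyl diphosphate to geranylgeranyl diphosphate, read 1.19, 1.18 and 1.07 at baseline and 1.03, 1.05 and 0.907 under ANG II, lower in all 3 ANG II kidneys with a change of -0.20 that did not pass the test (adjusted p = 0.0569). Fdft1, the squalene synthase, read 1.07, 1.25 and 1.09 at baseline and 1.08, 1.21 and 0.992 under ANG II, with an adjusted p of 0.651. Sqle, the squalene epoxidase, read 1.13, 1.34 and 0.954 at baseline and 0.986, 1.01 and 0.825 under ANG II, and its change of -0.27 ± 0.14 had an adjusted p of 0.168. Lss, which closes the rings to lanosterol, read 1.06, 1.09 and 1.01 at baseline and 1.22, 1.04 and 0.935 under ANG II, a change of 0.01 ± 0.10 (adjusted p = 0.974). These last 3 genes overlapped between groups, so only Fdps of the 5 middle enzymes was called.

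After lanosterol, 8 of 8 enzymes fell. Cyp51, the lanosterol demethylase, read 1.30, 1.13 and 1.04 at baseline and 0.778, 0.815 and 0.750 under ANG II (-0.56 ± 0.11, adjusted p = 0.00362). Tm7sf2, the reductase of the next step, read 1.18, 1.07 and 1.02 at baseline and 0.712, 0.751 and 0.714 under ANG II, with little spread under ANG II (-0.58 ± 0.07, adjusted p = 0.000174). Msmo1, Nsdhl and Hsd17b7 act in turn to remove the methyl groups of the ring. Msmo1, the methyl oxidase, read 1.15, 1.32 and 0.940 at baseline and 0.888, 0.871 and 0.639 under ANG II and varied between mice, so its change of -0.51 ± 0.17 only just passed (adjusted p = 0.0462). Nsdhl, the dehydrogenase, read 1.13, 1.14 and 1.15 at baseline and 0.753, 0.797 and 0.686 under ANG II and was nearly equal in the baseline mice (-0.61 ± 0.07, adjusted p = 0.000106). Hsd17b7, the keto reductase, read 1.07, 1.01 and 1.06 at baseline and 0.982, 0.850 and 0.898 under ANG II, the smallest change of those called (-0.21 ± 0.07, adjusted p = 0.0378).

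The last enzymes shift and reduce double bonds of the sterol. Ebp, the sterol isomerase, read 1.06, 0.985 and 1.06 at baseline and 0.845, 0.837 and 0.836 under ANG II (-0.30 ± 0.07, adjusted p = 0.00688). The 3 ANG II mice lay close together. Sc5d, the lathosterol oxidase, read 1.14, 1.10 and 1.17 at baseline and 0.819, 0.808 and 0.694 under ANG II (-0.56 ± 0.07, adjusted p = 0.000341). Dhcr7, the final reductase of the route, read 1.43, 1.36 and 1.27 at baseline and 0.668, 0.586 and 0.637 under ANG II, a clear separation (-1.10 ± 0.10, adjusted p = 3.53e-05).

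In the fatty acid arm Fasn, the fatty acid synthase, read 1.11, 1.15 and 1.02 at baseline and 0.736, 0.825 and 0.790 under ANG II (-0.48 ± 0.12, adjusted p = 0.0103). Me1, the malic enzyme that supplies NADPH for the synthase, read 1.02, 0.963 and 1.01 at baseline and 0.629, 0.658 and 0.667 under ANG II, a narrow spread in both groups (-0.61 ± 0.06, adjusted p = 6.73e-05). For both, every ANG II kidney lay below every baseline kidney, as in 21.3% of all genes. The other 5 were not called. Acly, which makes cytosolic acetyl-CoA from citrate, had an adjusted p of 0.997, and its 6 WT kidneys lay between 0.949 and 1.07. Acaca, the acetyl-CoA carboxylase, had a change of 0.14 ± 0.09 (adjusted p = 0.257) and was the sole member whose ANG II kidneys all lay above the baseline kidneys, as 19.8% of all genes did. Elovl6, an elongase, had -0.25 ± 0.12 (adjusted p = 0.15). The stearoyl-CoA desaturases Scd1 and Scd2 had -0.25 ± 0.16 and -0.05 ± 0.13, with adjusted p of 0.259 and 0.804.

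Of the regulators, Insig1 read 1.63, 1.83 and 1.42 in the WT baseline kidneys and 0.919, 1.27 and 0.645 in the WT ANG II kidneys (-0.83 ± 0.21, adjusted p = 0.014). Its spread under ANG II was wide, and without WT baseline replicate 2 or WT ANG II replicate 3 the call was lost (adjusted p of 0.0502 and 0.0527). Insig2, the second anchor of SCAP, read 1.13, 1.09 and 1.02 at baseline and 0.925, 0.843 and 0.783 under ANG II (-0.34 ± 0.08, adjusted p = 0.00819). Srebf2, the gene of the sterol factor itself, read 1.05, 1.12 and 1.08 at baseline and 0.960, 0.860 and 0.895 under ANG II (-0.27 ± 0.08, adjusted p = 0.027). Srebf1 read 1.40, 1.27 and 1.10 at baseline and 1.05, 1.34 and 0.948 under ANG II and was not called (-0.18 ± 0.17, adjusted p = 0.43). Scap and Stard4, which carries sterol through the cytosol, had changes of -0.18 ± 0.10 and -0.04 ± 0.10 (adjusted p of 0.195 and 0.773). With 1 probe set per gene Scap and the elongase gene Elovl6 were called lower (-0.332 and -0.364, adjusted p of 0.00619 and 0.0381, in ranges of 0.00619 to 0.496 and 0.0381 to 0.340 over all alternatives).

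Of the 18 members called in WT kidneys, 11 kept their call in all of 19 or 20 alternative settings run at gene level. Mvk lost it without any 1 of WT baseline replicates 1 and 2 and WT ANG II replicates 1 and 2, with adjusted p of 0.0600 to 0.109 there. Msmo1 lost it without any 1 of 7 arrays, replicates 1 and 2 of WT baseline, 2 and 3 of WT ANG II, 1 and 2 of KO baseline and 3 of KO ANG II (0.0564 to 0.179). Hsd17b7 lost it without any 1 of 6 arrays, all 3 of WT baseline, 2 and 3 of WT ANG II and 1 of KO baseline (0.0514 to 0.127). Srebf2 lost it without any 1 of 5 arrays, all 3 of WT baseline and 2 and 3 of WT ANG II (0.0557 to 0.0865). Fdps lost it without WT baseline replicate 2 (0.0502). Sc5d, Msmo1 and Mvk lost it with 1 probe set per gene (0.170, 0.619 and 0.0702). Without WT baseline replicate 2, 9 sterol enzymes and 1 regulator fell in place of 13 and 3. With the replicate numbers of the labels as pairs within a genotype, Mvk and Srebf2 were lost (adjusted p of 0.0702 and 0.0611) and Ggps1 was called (0.0426). Over all alternatives adjusted p ran from 0.0290 to 0.109 for Mvk, from 0.0172 to 0.0865 for Srebf2 and from 0.0306 to 0.203 for Ggps1.

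**Figure D2:**
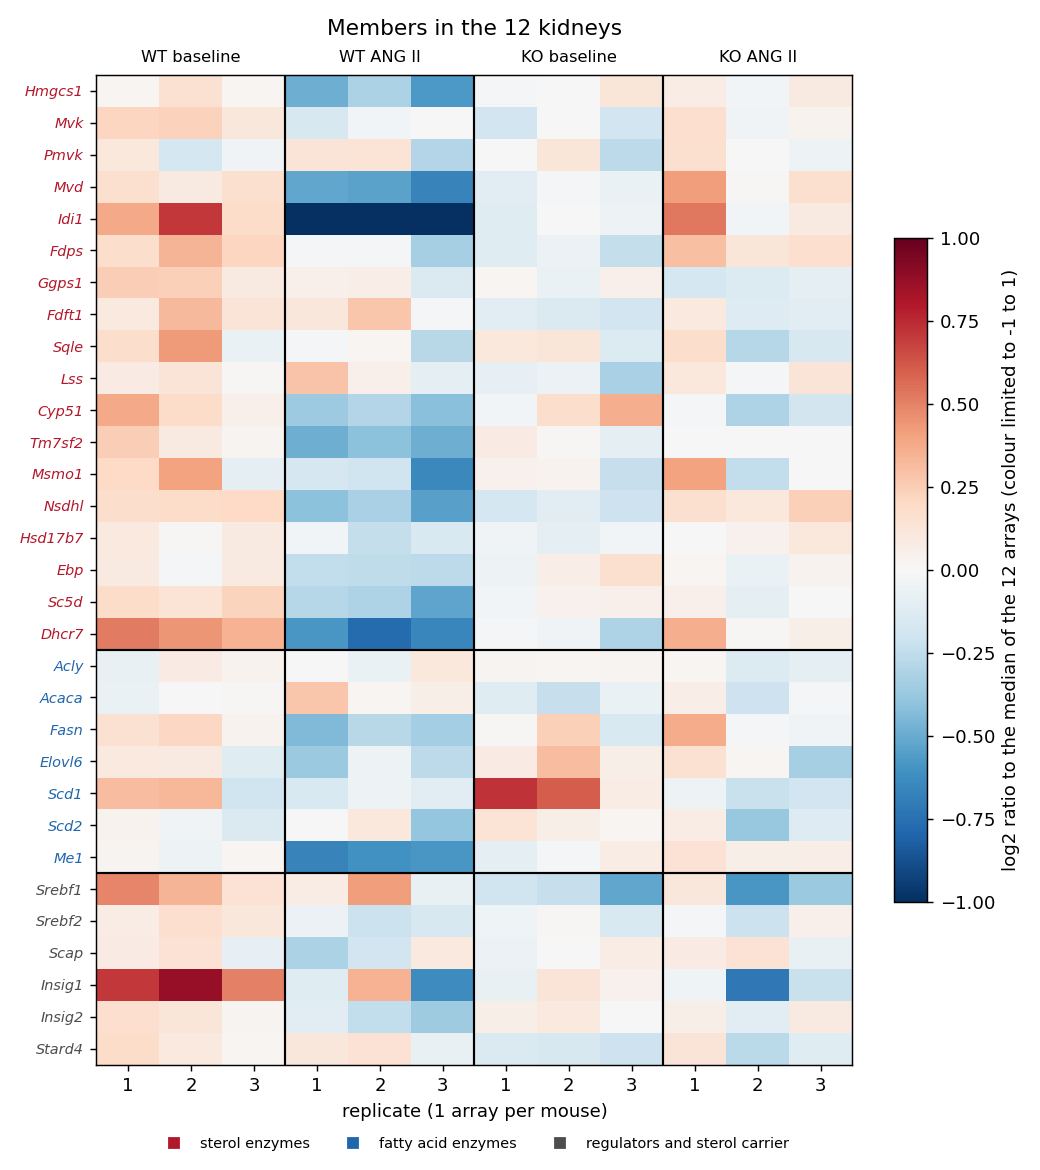
Colour map of the log2 ratio of each measured member (rows, in pathway order within the 3 groups of genes) on each of the 12 arrays (columns, 3 mice per group), with colours limited to -1 and 1. The WT ANG II columns are blue for most sterol enzymes, with Idi1 past the colour limit on all 3, and the WT baseline columns are mostly red.

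Within groups single mice stood apart in several genes at once. WT ANG II replicate 3 had the lowest ratio of its group in 14 of 18 sterol enzymes. KO ANG II replicate 2 was lowest in 15 of 18 sterol enzymes and 5 of 7 fatty acid enzymes, and KO ANG II replicate 1 was highest in 11 and 7 of them. Without WT ANG II replicate 3, 11 sterol enzymes fell in WT kidneys, Idi1, Hmgcs1, Mvd, Nsdhl, Sc5d and Dhcr7 among them. The difference of responses, given below, was called for 9 sterol enzymes without that array or without KO ANG II replicate 2, and for 8 without KO ANG II replicate 1, in place of 10.

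In KO kidneys, which lack the receptor, the same infusion gave few calls among the members. Of the 18 sterol enzymes 2 rose, Fdps and Nsdhl, and 0 fell, where 5.82% of all genes rose and 7% fell. At an unadjusted p under 0.05, 6 were higher and 1 lower. The median log2 change of the sterol enzymes was 0.10, against 0.05 over all genes. Fdps read 0.921, 0.960 and 0.848 in the KO baseline kidneys and 1.23, 1.09 and 1.12 in the KO ANG II kidneys (0.33 ± 0.09, adjusted p = 0.0346, limma). Nsdhl read 0.883, 0.925 and 0.865 at baseline and 1.12, 1.07 and 1.18 under ANG II (0.33 ± 0.07, adjusted p = 0.00943). Both were higher in all 3 infused mice, as were 23% of all genes. Nsdhl kept its call in all 20 alternatives, while Fdps lost it when any 1 of the 6 KO arrays was left out (adjusted p of 0.0531 to 0.107). Fdps also lost it with 1 probe set per gene (0.154).

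Scd1, a desaturase that adds a double bond to saturated fatty acids, fell in KO kidneys and was the sole member of its arm to be called there. It read 1.65, 1.52 and 1.05 in the KO baseline kidneys and 0.965, 0.857 and 0.877 in the KO ANG II kidneys (-0.62 ± 0.16, adjusted p = 0.0261). All infused kidneys lay below all baseline kidneys, as in 15.4% of all genes. However, KO baseline replicate 3 lay well below the other 2 baseline mice. Without KO baseline replicate 1 or 2, or KO ANG II replicate 2 or 3, the call was lost (adjusted p of 0.0769 to 0.0965). None of the 6 regulators and carriers was called in the limma fit (0 of 6 at an unadjusted p under 0.05), and their changes ran from -0.36 for Insig1 to 0.09 for Stard4.

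The genes that fell in WT kidneys gave the following values in KO kidneys. Idi1 read 0.920, 1.00 and 0.965 at baseline and 1.44, 0.979 and 1.06 under ANG II (0.25 ± 0.19, adjusted p = 0.392). Dhcr7 read 0.992, 0.977 and 0.809 at baseline and 1.29, 1.01 and 1.04 under ANG II (0.26 ± 0.10, adjusted p = 0.113). Mvd read 0.922, 0.992 and 0.955 at baseline and 1.34, 1.01 and 1.12 under ANG II (0.26 ± 0.09, adjusted p = 0.074). For these genes the highest infused mouse was replicate 1 each time. In Dhcr7 and Mvd all infused kidneys lay above all baseline kidneys. This held for 6 of the 18 sterol enzymes and for 23% of all genes. Hmgcs1 read 0.991, 1.00 and 1.09 at baseline and 1.06, 0.980 and 1.06 under ANG II, with the groups overlapping. Mvk read 0.876, 0.996 and 0.875 at baseline and 1.12, 0.975 and 1.02 under ANG II, also overlapping. Cyp51 read 0.980, 1.13 and 1.29 at baseline and 0.993, 0.807 and 0.879 under ANG II, its largest value being that of an uninfused mouse. Its change of -0.34 ± 0.11 was the most negative of the sterol arm (adjusted p = 0.0618), and it was called lower without KO baseline replicate 1 or KO ANG II replicate 1 (adjusted p of 0.0393 and 0.0417, in a range of 0.0393 to 0.194 over all alternatives).

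Tm7sf2 read 1.06, 1.01 and 0.937 in the KO baseline kidneys and 0.998, 0.997 and 1.00 in the KO ANG II kidneys. Msmo1 read 1.03, 1.03 and 0.851 at baseline and 1.32, 0.844 and 1.00 under ANG II. Hsd17b7 read 0.975, 0.935 and 0.981 at baseline and 1.00, 1.03 and 1.08 under ANG II. Of these, Hsd17b7 was higher in all 3 infused mice, as were 23% of all genes, and the other 2 overlapped. Ebp read 0.967, 1.04 and 1.12 at baseline and 1.01, 0.956 and 1.03 under ANG II. Sc5d read 0.979, 1.03 and 1.03 at baseline and 1.04, 0.936 and 0.997 under ANG II. Both overlapped between groups, as did the remaining called members of the WT response. Fasn read 1.01, 1.18 and 0.900 at baseline and 1.29, 0.991 and 0.974 under ANG II. Me1 read 0.932, 0.985 and 1.05 at baseline and 1.11, 1.04 and 1.05 under ANG II. The value of 1.29 for Fasn came from replicate 1, the mouse that was also highest in most sterol enzymes. Insig1 read 0.950, 1.09 and 1.03 at baseline and 0.972, 0.609 and 0.857 under ANG II. Insig2 read 1.04, 1.07 and 0.998 at baseline and 1.04, 0.926 and 1.06 under ANG II. Srebf2 read 0.970, 1.01 and 0.899 at baseline and 0.992, 0.864 and 1.03 under ANG II. Insig1 spread most of these, down to 0.609 in replicate 2.

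The difference of the responses, KO minus WT, tests whether the effect of ANG II depended on the receptor. Of 18 sterol enzymes, 10 had a higher response in KO and 0 a lower one, where 8.86% of all genes were higher and 4.12% lower in limma. At an unadjusted p under 0.05, 12 were higher and 0 lower. The median difference of the sterol enzymes was 0.48 on the log2 scale, against 0.02 over all genes. All 18 had a positive sign, as did 52.5% of all genes, but with 1 probe set per gene Fdft1, Lss and Ggps1 had -0.233, -0.084 and -0.035, and Pmvk was as low as -0.084 when single arrays were left out. Idi1 differed most (2.18 ± 0.27, adjusted p = 0.000345, limma), followed by Dhcr7 (1.37 ± 0.15, adjusted p = 0.000135), Mvd (0.97 ± 0.13, adjusted p = 0.000535) and Nsdhl (0.95 ± 0.10, adjusted p = 9.53e-05). Fdps, Tm7sf2, Hmgcs1, Sc5d, Mvk and Hsd17b7 were also called, with differences of 0.70, 0.58, 0.53, 0.52, 0.43 and 0.31. Cyp51, Msmo1 and Ebp fell in WT kidneys, but their differences of 0.22 ± 0.16, 0.61 ± 0.25 and 0.24 ± 0.10 did not pass (adjusted p of 0.409, 0.128 and 0.12).

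In the fatty acid arm the responses of Me1 (0.72 ± 0.09, adjusted p = 0.000396) and Fasn (0.56 ± 0.17, adjusted p = 0.0434) differed, and the median of the 7 enzymes was -0.05. Of the regulators and carriers 0 of 6 passed in limma (2 of 6, both higher, at an unadjusted p under 0.05), and Insig2 came nearest with 0.30 ± 0.11 (adjusted p = 0.0953). Insig1, at 0.47 ± 0.30, had an adjusted p of 0.355, and Srebf2, at 0.27 ± 0.11, one of 0.141.

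Of the 12 members called for the difference, 8 kept the call in every alternative run at gene level. With the replicate numbers as pairs within a genotype, Mvk and Hsd17b7 were lost (adjusted p of 0.0601 and 0.0592) and Msmo1 was called (0.0462). Over all alternatives adjusted p ran from 0.0182 to 0.122 for Mvk, from 0.0173 to 0.264 for Hsd17b7 and from 0.0462 to 0.418 for Msmo1. Hsd17b7 lost the call without any 1 of 11 arrays, all but WT ANG II replicate 1 (0.0563 to 0.117). Fasn lost it without any 1 of 9 arrays, all but KO baseline replicate 2 and KO ANG II replicates 2 and 3 (0.0541 to 0.0965). Mvk lost it without WT baseline replicate 1 or 2, KO baseline replicate 1 or 3, or KO ANG II replicate 1 (0.0538 to 0.0634). Sc5d, Mvk, Hsd17b7 and Fasn lost it with 1 probe set per gene (0.387, 0.122, 0.264 and 0.0514).

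Before any infusion the genotypes already differed in part of the sterol arm. Of 18 sterol enzymes 5 were lower in KO and 0 higher, where 2.94% of all genes were lower and 5.13% higher. At an unadjusted p under 0.05, 10 were lower and 0 higher. Those called were Dhcr7 (-0.55 ± 0.10, adjusted p = 0.00798, limma), Fdps (-0.38 ± 0.09, adjusted p = 0.0253), Nsdhl (-0.35 ± 0.07, adjusted p = 0.00869), Fdft1 (-0.33 ± 0.09, adjusted p = 0.0416) and Mvk (-0.32 ± 0.08, adjusted p = 0.0295). The median change of the 18 was -0.20, against -0.04 over all genes. For 11 of the 18 all KO kidneys lay below all WT kidneys, where 21.1% of all genes did so. Fdft1 read 1.07, 1.25 and 1.09 in the WT kidneys and 0.928, 0.903 and 0.877 in the KO kidneys at baseline. Idi1, also apart in every array, missed the threshold (-0.48 ± 0.19, adjusted p = 0.142).

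Srebf1 was the sole regulator called at baseline. It read 1.40, 1.27 and 1.10 in the WT baseline kidneys and 0.869, 0.854 and 0.697 in the KO baseline kidneys (-0.64 ± 0.17, adjusted p = 0.0377). Insig1 was lower in KO by a similar amount but did not pass (-0.66 ± 0.21, adjusted p = 0.0761). Its ratios were 1.63, 1.83 and 1.42 in WT and 0.950, 1.09 and 1.03 in KO. All KO kidneys thus lay below all WT kidneys, as in 21.1% of all genes. Insig1 was called in 5 of 19 alternatives, with adjusted p of limma from 0.00817 to 0.204. None of the 7 fatty acid enzymes was called by limma at baseline (0 of 7 at an unadjusted p under 0.05), with changes from -0.12 for Acaca to 0.32 for Scd1. Nsdhl and Dhcr7 kept their calls in all 19 alternatives. Mvk was lost without any 1 of 5 arrays, all 3 of WT baseline and 1 and 3 of KO baseline. Fdps was lost without any 1 of 5 arrays, 2 and 3 of WT baseline and all 3 of KO baseline. Fdft1 and Srebf1 were lost without any 1 of the 6 baseline arrays. Adjusted p there ran from 0.0516 to 0.146, and 2 to 3 sterol enzymes and 0 regulators were then called. With 1 probe set per gene Mvk and Fdft1 were lost as well (0.0615 and 0.294). The macrophage markers were higher in KO in 9 of 11 genes in this comparison, and 3 of 12 proximal tubule markers were lower. Of all genes 5.13% were higher and 2.94% lower.

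Under ANG II many sterol enzymes were instead higher in KO than in WT kidneys. Of 18 sterol enzymes 9 were called higher in KO and 0 lower, where 15.2% of all genes were higher and 10.4% lower. At an unadjusted p under 0.05, 11 were higher and 0 lower. The median change was 0.28, against -0.02 over all genes. For 10 of the 18 all KO kidneys lay above all WT kidneys, where 21% of all genes did so. Idi1 was 3.26-fold higher in KO (1.71 ± 0.19, adjusted p = 6.69e-05, limma), Dhcr7 1.76-fold (0.81 ± 0.10, adjusted p = 0.000198) and Mvd 1.71-fold (0.77 ± 0.09, adjusted p = 9.98e-05). Nsdhl, Hmgcs1, Tm7sf2, Sc5d, Fdps and Ebp were also higher, by 0.59, 0.51, 0.46, 0.36, 0.32 and 0.25. Fasn (0.46 ± 0.12, adjusted p = 0.0139), Me1 (0.71 ± 0.06, adjusted p = 1.39e-05) and Insig2 (0.25 ± 0.08, adjusted p = 0.0351) were higher in KO as well. With the values quantile normalized once more, 72% of all called genes were higher in KO in place of 59.4%, and Fasn, Ebp and Insig2 were lost. Fdps was lost without WT ANG II replicate 3 or KO ANG II replicate 1 or 3 (adjusted p of 0.0570 to 0.0979). Ebp was lost without KO ANG II replicate 1 or 3 (0.0605 to 0.0661), and Fasn without KO ANG II replicate 1 (0.0568). Insig2 was lost without any 1 of replicates 2 and 3 of WT ANG II and 1 and 3 of KO ANG II (0.0792 to 0.128). With 1 probe set per gene Sc5d, Fdps and Insig2 were lost, Fdft1 and Ggps1 were called lower in KO (-0.441 and -0.421, adjusted p of 0.0143 and 0.0228) and Scap was called higher (0.232, adjusted p of 0.0346). Over all alternatives adjusted p ran from 0.0143 to 0.457 for Fdft1, from 0.0228 to 0.445 for Ggps1 and from 0.0346 to 0.479 for Scap. In this comparison 8 of 11 macrophage markers were higher in KO and 0 lower, and of 12 proximal tubule markers 7 were higher and 1 lower. This comparison and the WT response share the WT ANG II kidneys, and the baseline comparison shares the WT baseline kidneys with the WT response.

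Over the 4 groups most sterol enzymes shared the group with the highest and the group with the lowest mean. WT baseline was the highest group for 14 of 18, where this held for 15.6% of all genes, and WT ANG II was the lowest for 12 of 18, where this held for 33.2% of all genes. For Idi1 the mean log2 ratio was 0.42 in WT baseline, 0.19 in KO ANG II, -0.06 in KO baseline and -1.51 in WT ANG II kidneys. The test did not separate its KO groups (adjusted p = 0.392) or the baseline groups (adjusted p = 0.142), though the latter passed in a fit to the 2 groups alone and with array weights (0.0447 and 0.0494). Of the 7 fatty acid enzymes WT baseline was highest in 1 and WT ANG II lowest in 3.

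The sterol arm and the fatty acid arm are set side by side in the plot of array means. The geometric mean ratio of the 18 sterol enzymes ran from 1.07 to 1.16 at WT baseline and from 0.735 to 0.848 under ANG II. In KO kidneys it was 0.941 to 1.00 at baseline and 0.959 to 1.12 under ANG II. The 7 fatty acid enzymes averaged 0.964 to 1.06 at WT baseline and 0.861 to 0.913 in infused WT mice, a smaller gap that also separated all mice. In KO kidneys they averaged 1.00 to 1.10 at baseline and 0.916 to 1.08 under ANG II, so the groups overlapped. The log2 mean of the sterol arm minus that of the fatty acid arm ran from 0.128 to 0.150 at WT baseline and from -0.227 to -0.0678 in infused WT mice. In the KO kidneys it was -0.156 to -0.0931 at baseline and 0.0482 to 0.132 under ANG II. Values are ratios to a median over the arrays, so the sign of this gap in a single group cannot be read. Only its shifts between groups can be read. The gap was lower in all infused than in all baseline WT mice. In KO mice it was higher in all infused than in all baseline mice. Both arms had a part in this KO shift. From KO baseline to KO ANG II the mean log2 of the sterol arm went from -0.045 to 0.042. That of the fatty acid arm went from 0.085 to -0.04, and its most negative change was that of Scd1, at -0.62. The 6 regulators and carriers averaged 1.09 to 1.22, 0.871 to 1.03, 0.914 to 0.983 and 0.818 to 1.04 in WT baseline, WT ANG II, KO baseline and KO ANG II kidneys. No test was run on these means or on the difference between the arms, since the members were chosen with results of these data known.

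**Figure D3:**
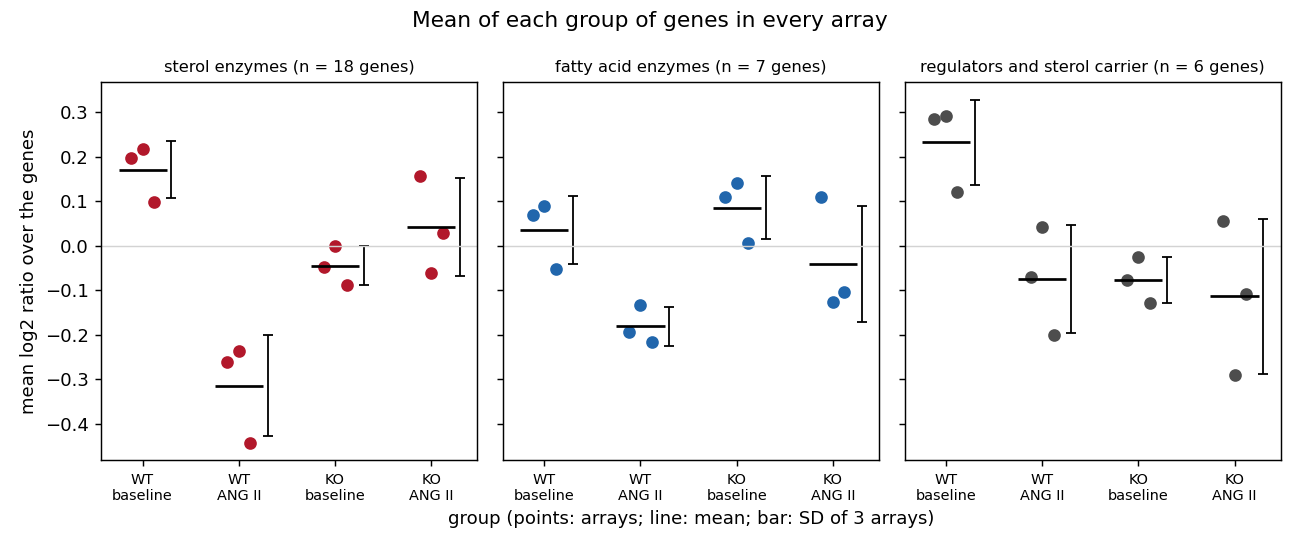
Mean log2 ratio (y axis) over the 18 sterol enzymes, the 7 fatty acid enzymes and the 6 regulators and carriers on each array, by group (x axis); points are the 3 mice, lines the group mean and bars the standard deviation. The WT ANG II mice lie lowest for the sterol enzymes, at -0.44 to -0.24, and the 4 groups lie closer together for the fatty acid enzymes.

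Single probe sets of a gene did not always move alike. Of the 73 probe sets of the members, 31 fell and 2 rose in WT kidneys, where 13.3% of all probe sets fell and 10.9% rose, with p-values adjusted over all 45037. Fdft1 was the one gene called in both directions. Its probe set 1438918_at rose by 0.35 ± 0.11 (adjusted p = 0.0399, limma) while 1448130_at had -0.44 ± 0.15 (adjusted p = 0.0433), and the gene mean was -0.06. For Lss, probe set 1420014_at rose by 0.33 ± 0.10 (adjusted p = 0.0241), and the other 2 had -0.20 and -0.12 without passing. The 2 probe sets of Idi1 gave -2.12 and -1.75, and those of Me1 -0.61 and -0.62. In Hmgcs1, 4 of 5 probe sets gave -0.67 to -0.57 and were called, and 1441536_at gave -0.13. The probe sets of Msmo1 gave -0.94 and -0.08, and those of Sc5d -0.80, -0.72 and -0.15, so their gene means depend on which probe sets are used. In KO kidneys 2 of the 73 rose and 4 fell, where 3.6% of all probe sets rose and 6.31% fell. Both probe sets of Scd1 fell there, by 0.65 ± 0.18 and by 0.60 ± 0.17. For the difference of the responses 18 of 73 were higher and the others not called, where 5.7% of all probe sets were higher and 4.08% lower. Between the genotypes 5 were lower in KO at baseline, where 1.65% of all probe sets were lower and 4.87% higher, and 19 were higher and 3 lower under ANG II, where 11.7% were higher and 8.17% lower.

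**Figure D4:**
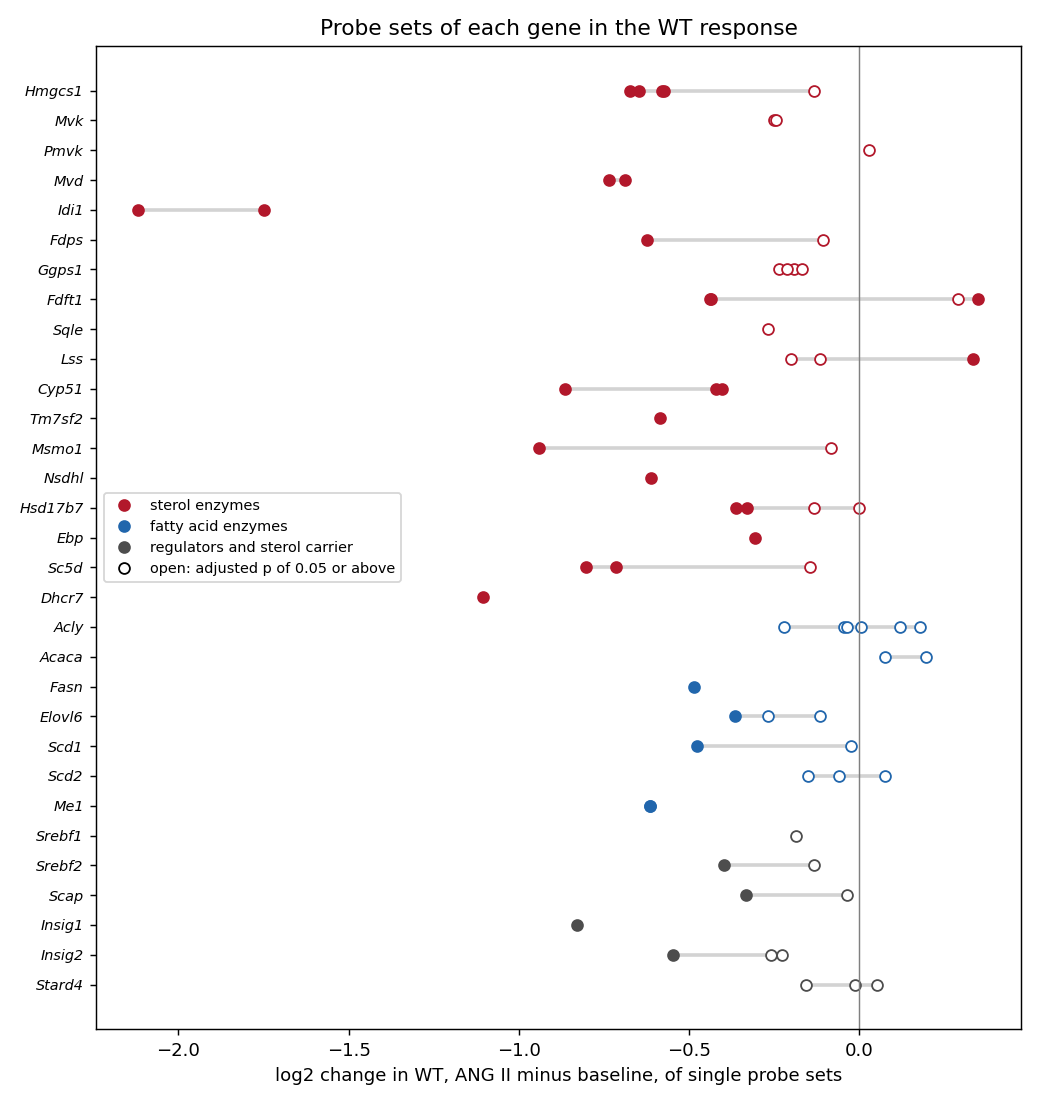
Log2 change from baseline to ANG II in WT kidneys (x axis) of each probe set of the members (points), by gene (y axis); grey lines join the probe sets of a gene and filled points have an adjusted p under 0.05. The points of Idi1 lie farthest left, at -2.12 and -1.75, and the points of Fdft1 and Lss lie on both sides of 0.

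Other genes of sterol and lipid control were counted in 4 lists beside the members. Of 5 further sterol and fatty acid desaturation genes measured, 3 fell and 1 rose in WT kidneys, where 15.6% of all genes fell and 10.9% rose. Erg28, a scaffold of the sterol enzymes, fell (ratios 1.06, 1.01 and 1.02 at baseline and 0.800, 0.841 and 0.719 under ANG II; -0.39 ± 0.07, adjusted p = 0.00228). Aacs, which activates acetoacetate, and the desaturase Fads2 fell by 0.39 and 0.27. Fads1 rose by 0.26 but had -0.07 with 1 probe set per gene. Without any 1 array other than WT baseline replicate 2, Aacs was not called, with adjusted p up to 0.347 over all alternatives. Fads1 was not called without any 1 of 9 arrays, and Fads2 without WT baseline replicate 1 or 3 or WT ANG II replicate 2 or 3. Of 13 further lipogenic genes 6 fell and 2 rose, and the latter share is near that of all genes. The largest falls were those of Mlx, a partner of the carbohydrate response factor (-0.60 ± 0.08, adjusted p = 0.000304), Mid1ip1, which aids acetyl-CoA carboxylase (-0.51 ± 0.13), Acss2, the cytosolic acetyl-CoA synthetase (-0.50 ± 0.07), and the elongase Elovl5 (-0.40 ± 0.07). Mid1ip1 was not called without WT baseline replicate 1 or 2 or WT ANG II replicate 3, with adjusted p up to 0.0881. Of 6 genes of SREBP processing 3 fell, namely Syvn1, a ubiquitin ligase of the endoplasmic reticulum (-0.55 ± 0.11, adjusted p = 0.0043), the protease gene Mbtps2 (-0.33 ± 0.10) and Erlin2 (-0.22 ± 0.07). The last 2 were lost in 6 of 20 and 8 of 19 alternatives, among them without WT baseline replicate 1 or 3 or WT ANG II replicate 2, with adjusted p up to 0.114 and 0.0974.

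The last list holds genes of sterol export and storage, many of them targets of the sterol-sensing receptor LXR. Of 9 measured, 4 rose and 1 fell in WT kidneys, where 10.9% of all genes rose and 15.6% fell. Abca1, the transporter that loads cholesterol onto apolipoproteins, read 1.18, 0.904 and 1.02 in the WT baseline kidneys and 2.57, 2.17 and 1.92 in the WT ANG II kidneys (1.10 ± 0.13, adjusted p = 0.000181). Apoe, an apolipoprotein, read 0.841, 0.816 and 0.789 at baseline and 3.09, 1.69 and 2.24 under ANG II (1.48 ± 0.19, adjusted p = 0.000277). No infused WT kidney reached down to a baseline kidney in either gene, as in 19.8% of all genes. Mylip, a ligase that degrades lipoprotein receptors, rose by 0.55 (adjusted p = 0.0277), and Npc1, which moves cholesterol out of lysosomes, fell (-0.55 ± 0.13, adjusted p = 0.0105). Mylip was lost without WT baseline replicate 2 or WT ANG II replicate 1 or 3, and Npc1 without WT baseline replicate 1, with adjusted p up to 0.146 and 0.0515 over all alternatives. In KO kidneys 2 of the 9 fell and 0 rose, where 7% of all genes fell and 5.82% rose. At an unadjusted p under 0.05, 4 were lower and 1 higher. Abca1 read 0.983, 1.02 and 0.911 at baseline and 0.844, 0.624 and 0.643 under ANG II there (-0.48 ± 0.13, adjusted p = 0.0363), and Apoe 1.70, 1.80 and 1.15 at baseline and 0.805, 0.758 and 0.850 under ANG II (-0.92 ± 0.19, adjusted p = 0.0104). The responses differed by -2.40 ± 0.27 for Apoe, -1.58 ± 0.19 for Abca1 and -1.01 ± 0.23 for Mylip (adjusted p of 0.000166, 0.000272 and 0.0129). The KO fall of Abca1 was lost in 6 of 20 alternatives, among them without any 1 of the 3 KO baseline arrays or KO ANG II replicate 2 or 3, with adjusted p up to 0.124. Apoe is also made by macrophages, whose markers fell in KO kidneys in 9 of 11 genes and in WT kidneys in 5 of 11 under ANG II.

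**Figure D5:**
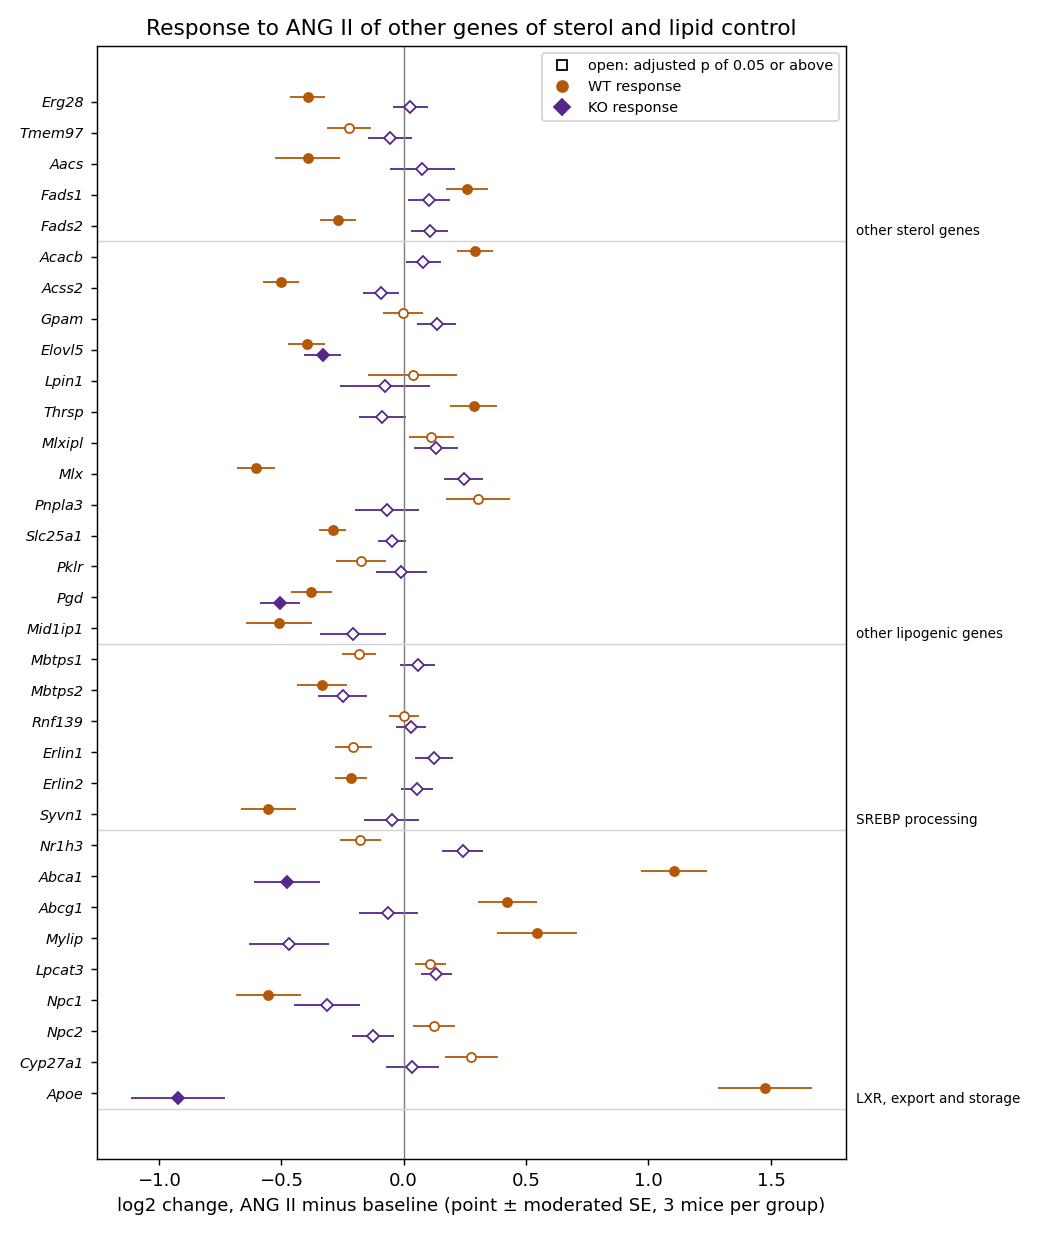
Log2 change from baseline to ANG II (x axis) of 33 other genes of sterol and lipid control (y axis, in 4 lists) in WT kidneys (circles) and KO kidneys (diamonds), as point ± moderated standard error with 3 mice per group; filled symbols have an adjusted p under 0.05. Apoe and Abca1 lie farthest right in WT kidneys, at 1.48 and 1.10, and to the left of 0 in KO kidneys, at -0.92 and -0.48.

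Markers of cells that a kidney sample can hold were read beside these values. Sterols are also made in adrenal cortex and fatty acids in fat, which lie next to the kidney. The shares over all genes were, for WT, 10.9% rising and 15.6% falling and, for KO, 5.82% rising and 7% falling. Of 11 adipocyte markers 4 rose and 1 fell in WT kidneys under ANG II; their mean ratio was 1.07 to 1.18 against 0.960 to 1.01 at baseline. Of 10 adrenal cortex markers 3 rose, with a mean ratio of 1.07 to 1.18 against 0.973 to 1.02. Of 12 proximal tubule markers 7 fell and 1 rose, with log2 changes from -1.91 to 0.60. For 3 markers of the thick ascending limb, 2 of the distal convoluted tubule, 5 of the collecting duct, 3 of podocytes and 4 of endothelium the counts of falls were 1, 1, 2, 0 and 2; the others were not called. In KO kidneys 1 of 12 proximal tubule markers rose, and 2 of 10 adrenal markers rose and 1, Scarb1, fell. Of the 11 adipocyte and the 2 distal convoluted tubule markers 1 each rose. Of the 5 collecting duct and the 3 podocyte markers 1 each fell. Among the 4 endothelium markers 1 rose and 1 fell, and no thick ascending limb marker was called. Scarb1, and Pck1 of the adipocyte list, are also expressed by kidney tubules. The part of these shifts in the changes of the members was not tested.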

How the data were processed

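Total RNA of 12 kidneys, 3 in each of 4 groups, had been hybridised to Affymetrix Mouse Genome 430 2.0 arrays. The authors deposited 1 ratio per probe set and array; RMA is named in the submitters' processing notes, with no version. Division by the median over the arrays is read from the deposited values, since 45099 of 45101 probe sets have a median within 0.002 of 1, and the scanner signals were not used here. The division removes levels, so neither absolute expression nor detection can be read, and RMA had already corrected the background and scaled the arrays. The number of arrays limits the precision. No identical arrays were found (0 pairs). After 64 control probe sets were left out, 34945 had 1 gene symbol in the platform annotation, 932 several and 9160 none; the ratios were taken to log2 and averaged over the probe sets of a symbol, giving 18193 genes.

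limma 3.58.1 in R 4.3.3 fitted the 4 group means to all 12 arrays (8 residual and 4.73 prior degrees of freedom), with 5 two-sided comparisons and Benjamini-Hochberg adjustment over all genes, called at an adjusted p under 0.05. With 3 against 3 an exact permutation test of a single value cannot go below 0.1. The labels give 3 mice per group and number the arrays 1 to 3 in each. Samples of the same number deviated together in the WT comparison, with correlations of 0.125 to 0.236 for the 3 pairs, but not in KO (-0.146 to 0.0475), at baseline (-0.0743 to 0.167) or under ANG II (-0.101 to 0.0436), so by the rule of correlations over 0.1 in every pair the numbers paired the WT arrays. The procedure was checked on simulated data. All members were named by rule, with values in every array for those called in the WT response, the KO response or the difference, and up to 4 called genes with the largest change in each of 4 further pathway lists. Members and lists were chosen with earlier results of these data known. Alternatives were a repeated quantile normalization, centring, 1 probe set per gene, single probe sets, fits to the compared groups, replicate blocks, array weights, leaving out the 25% of genes with the lowest spread, and leaving out each array.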

Additional observations from a re-analysis of the deposited data

Results flagged for a closer look

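The genes below were set apart because their response to ANG II differed between KO and WT kidneys by the test of the difference itself (limma interaction term, adjusted p under 0.05 over all genes). Among the sterol enzymes the KO response minus the WT response was 2.18 for Idi1, 1.37 for Dhcr7, 0.97 for Mvd, 0.95 for Nsdhl, 0.70 for Fdps, 0.58 for Tm7sf2, 0.53 for Hmgcs1, 0.52 for Sc5d, 0.43 for Mvk and 0.31 for Hsd17b7, all on the log2 scale. In the fatty acid arm it was 0.72 for Me1 and 0.56 for Fasn. Among other genes of the pathway it was 0.85 for Mlx, 0.42 for Erg28, 0.41 for Acss2 and 0.37 for Fads2. Nr1h3, which encodes an LXR receptor and was named here after its value was seen, had 0.42. The 3 genes with the opposite sign were Apoe at -2.40, Abca1 at -1.58 and Mylip at -1.01. Among the genes outside the members, the call for the difference was lost in 11 of 19 alternatives for Nr1h3. It was lost in 10 for Fads2, 3 for Acss2 and 1 for Erg28. Adjusted p of limma went up to 0.0845, 0.0853, 0.0817 and 0.0559 for these genes. Mlx, Apoe, Abca1 and Mylip kept the call in all 19.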

How the results depend on the processing

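Of the members called, 11 of 18 in the WT response, 1 of 3 in the KO response, 8 of 12 for the difference, 2 of 6 at baseline and 7 of 12 under ANG II kept the call in every alternative run at gene level. Values that turned sign and were called in the reported or the alternative setting were those of Fdft1 in WT (0.35 with 1 probe set per gene and for probe set 1438918_at), Fads1 in WT (-0.068 with 1 probe set per gene) and Hmgcs1 for the difference (-0.023 for probe set 1441536_at), so these follow the choice of probe set. Of 155 member values, 46 turned sign in some alternative without a call in either setting. With quantile normalization repeated, 668 of all genes rose in WT (1982 before), 1060 were higher for the difference, and 1660 were higher and 645 lower in KO under ANG II. In that setting 1 fatty acid enzyme passed for the difference and 1 under ANG II, and 2 regulators were lower at baseline and 0 higher under ANG II. Fits to only the compared groups gave 1237 genes higher in WT, 942 lower under ANG II, 3 regulators lower at baseline and 0 higher under ANG II. Array weights gave 1861 genes higher in KO, 1207 lower at baseline and 3 regulators lower at baseline. With 1 probe set per gene, 1 sterol enzyme was higher in KO, 1 fatty acid enzyme passed for the difference and 3 sterol enzymes were lower at baseline; in that setting 2 sterol enzymes rose in WT and 2 were lower in KO under ANG II. Leaving out each array in turn gave 838 to 2317 genes higher and 1751 to 3155 lower in WT, with 1 to 3 regulators lower. It gave 327 to 1255 higher and 608 to 1398 lower in KO, with 1 to 2 sterol enzymes higher and 0 to 1 fatty acid enzymes lower. For the difference it gave 1012 to 1946 higher and 473 to 802 lower, with 1 to 2 fatty acid enzymes. At baseline it gave 420 to 996 higher and 150 to 665 lower, with 2 to 5 sterol enzymes and 0 to 2 regulators lower. Under ANG II it gave 830 to 2288 lower, with 1 to 2 fatty acid enzymes and 0 to 1 regulators higher. The cause of these shifts was not tested. A replicate block common to all groups changed none of 155 member calls over the 5 comparisons. A replicate block within each genotype, added after the pairing was checked, ended Mvk (0.0702) and Srebf2 (0.0611) in WT and Mvk (0.0601) and Hsd17b7 (0.0592) for the difference, and gave Ggps1 in WT (0.0426) and Msmo1 for the difference (0.0462), all adjusted p of limma; their ranges stand beside those results. The alternatives were run on the other pathway genes too, a choice made after the data were seen. Ratios keep no signal over background, so dim probe sets could not be left out.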
